A study of Mus musculus with 18 samples.

Results

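Fatty acid oxidation and ketone body enzymes were described here as a module of 37 genes, chosen by a fixed list of symbols and looked up in the gene symbol column of the liver and the AML12 expression tables. The list holds 20 mitochondrial, 10 peroxisomal and 3 microsomal enzymes or carriers, 2 enzymes found in both mitochondria and peroxisomes, and 2 enzymes of the cytosol or the cell surface. All 37 were found among the 16533 genes of the liver table, and 34 among the 15579 genes of the AML12 table. The series holds 18 RNA-seq samples in 6 groups. In the liver experiment, male mice labelled B6.Cg-dock7m Leprdb/++/J (db/db), whose leptin receptor is defective and which grow obese and diabetic, received recombinant mouse serum albumin (rMSA) intravenously at a dose of 1.5 mg/g, once every 3 weeks for 9 weeks (3 injections) (n = 3 mice). Their controls were db/db mice given saline on the same schedule (n = 3 mice). Every mouse of the liver experiment therefore carried the db/db genotype, no lean liver is among these samples, and the age of the mice is not given in the sources used here. In the cell experiment, AML12 cells, an immortalized mouse hepatocyte line labelled wild type, were starved of serum overnight and then kept for 24 h with rMSA (600 μM) + insulin (10 nM), with rMSA alone, with insulin alone or with vehicle (3 libraries each). The sources do not say whether the AML12 libraries within a group are separate cultures, so the p-values for these cells measure only the spread between libraries.

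Mitochondrial β-oxidation begins when the carnitine shuttle brings long-chain acyl groups into the matrix. A dehydrogenase, a hydratase, a second dehydrogenase and a thiolase then shorten them step by step to acetyl-CoA, which the fasting liver turns into ketone bodies. Peroxisomes carry a parallel set of enzymes for very long, branched and dicarboxylic acids and hand shortened products to mitochondria. Enzymes of the Cyp4a family in the endoplasmic reticulum (the microsomal fraction) add the hydroxyl group that starts ω-oxidation to dicarboxylic acids. In mouse liver many genes of all these routes are known targets of the nuclear receptor PPARα, and peroxisome proliferators raise them together.

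Values are TPM, a gene's share of transcripts corrected for length, with an equal total for each library. Because read numbers cannot be read back from TPM, library depth is unknown and values carry no counting interval. Differences were tested with limma on log2(TPM + 1) in the genes whose mean reached 1 TPM, 11398 in liver and 10826 in AML12 cells. The words rose and fell stand for a Benjamini-Hochberg adjusted p under 0.05 over all tested genes, and the change is called large where the log2 fold change was also at least 1 in size. On this scale the change of genes near or below 1 TPM is understated. The libraries of the liver parted by treatment on the first principal component. In AML12 cells, insulin libraries 1 and 2 stood apart from insulin library 3, with a median TPM of the tested genes of 14.6 and 11.2 against 20.5, while the other groups held 16.2 to 22.6. The hepatocyte markers fixed for the check, such as Alb, were present in all livers (summed TPM 80268 to 86225 with rMSA and 75700 to 92037 with saline). Alb alone held 44225 to 52052 TPM of the sums with rMSA and 32790 to 52715 TPM with saline. In AML12 cells the hepatocyte markers summed to 181 to 440.3 TPM, and 5 of 12 averaged at least 1 TPM in the vehicle group. Krt19, a keratin of bile duct cells, stood at 1012 to 1804 TPM over the 12 libraries.

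In rMSA-treated db/db livers, 20 of the 37 members rose and 2 fell, and the other 15 missed the threshold. The largest increases were those of Vnn1, Acaa1b, Acot3, Acot2 and Bdh1, and the largest decrease was that of Cyp4a10. Among all 11398 tested genes, 21.8% rose and 8.38% fell. The change was large for 9 members that rose and 1 that fell, against 5.94% and 2.67% of all genes. The median log2 fold change was 0.52 over the members and 0.12 over all tested genes. In bulk RNA a change in the number of hepatocytes and a change in the RNA per cell cannot be told apart. The 3 rMSA livers all lay above the 3 saline livers for 25 members and all below them for 2, against 32.7% and 13.0% of all tested genes. Median centring of the libraries moved the median of all tested genes by -0.14 and left 16 members higher and 1 lower, with 52.3% of all calls upward in place of 72.3%.

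**Figure D1:**
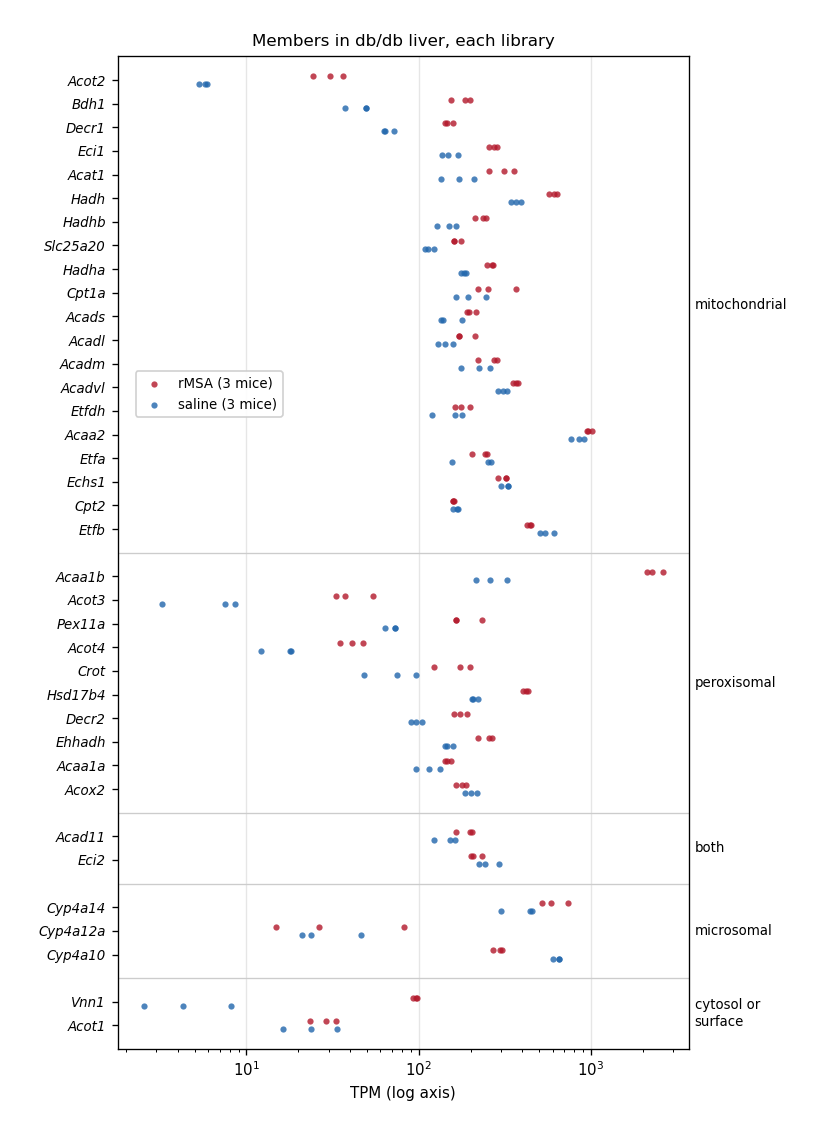
TPM of each of the 37 members (rows, grouped by compartment) in db/db liver on a log axis, 1 point per mouse (3 rMSA, 3 saline). The rMSA points of Acaa1b lie between 2116 and 2612 TPM and its saline points between 216 and 326 TPM, whereas the points of Cpt2, Echs1 and Cyp4a12a overlap.

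By compartment, 8 of 10 peroxisomal members rose and 0 fell (median log2 fold change 1.08), whereas 10 of 20 mitochondrial members rose and 1 fell (median 0.44). Of the 3 microsomal members 1 rose and 1 fell (median 0.16). Neither of the 2 enzymes of both organelles passed (median 0.07), and 1 of the 2 cytosolic or cell-surface members rose. These counts were not compared by a test between compartments, since members of a pathway are not replicates of it.

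**Figure D2:**
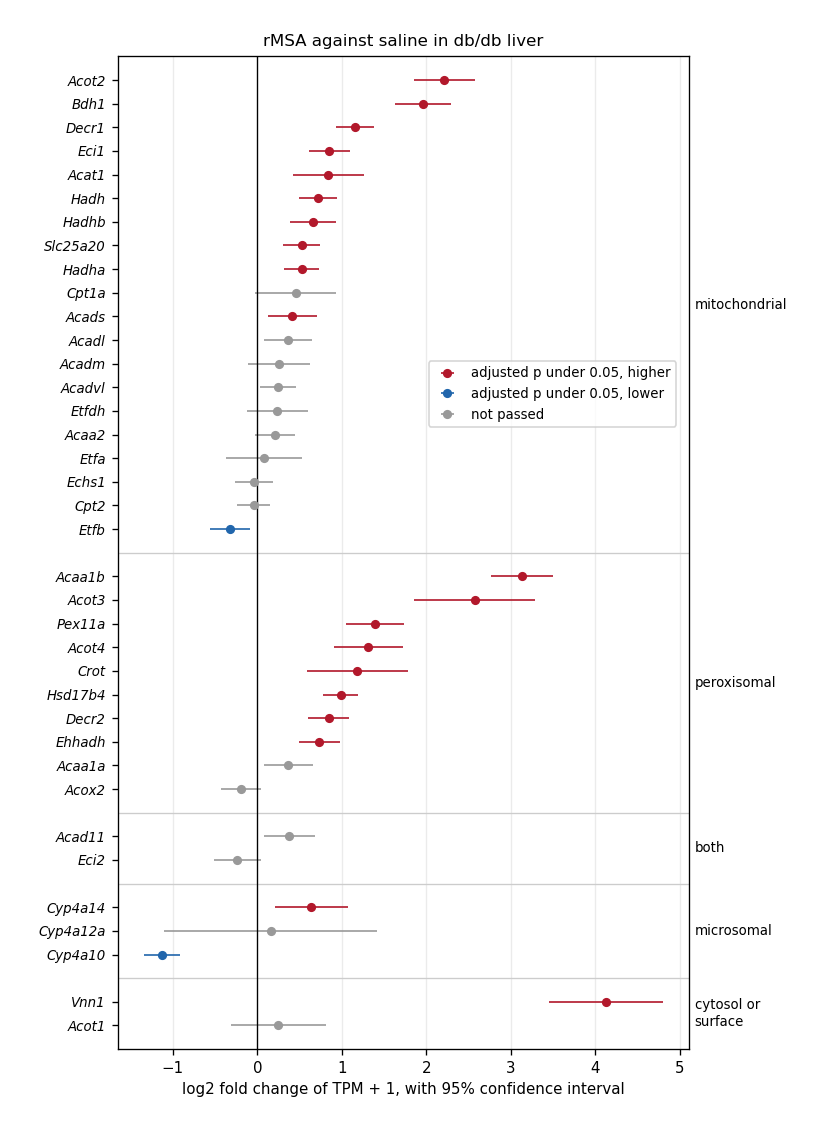
Log2 fold change of TPM + 1, rMSA against saline in db/db liver, for each member (rows, by compartment) with its 95% confidence interval from limma over 3 mice per group. Red members passed the adjusted p of 0.05 upward, blue members downward and grey members did not pass. Vnn1 stands highest at 4.12 and Cyp4a10 lowest at -1.13.

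Acaa1b, a peroxisomal 3-ketoacyl-CoA thiolase that releases acetyl-CoA in the last step of the cycle, was the most abundant member in rMSA livers. It had 2612, 2274 and 2116 TPM in rMSA livers, against 261, 216 and 326 TPM in saline livers, so that even the lowest rMSA liver was far above the highest saline liver. Its log2 fold change was 3.14 ± 0.16 (SE, adjusted p = 1.17e-05, limma), a ratio of means of 8.73. The near copy Acaa1a, which encodes a thiolase of the same step, had 154, 147 and 142 TPM in rMSA livers, against 96.8, 115 and 133 TPM in saline livers. The groups did not overlap here either, but the log2 fold change was 0.37 ± 0.13 (SE, adjusted p = 0.0587, limma) and the change did not pass. The 95% intervals of the paralogs, 2.77 to 3.50 for Acaa1b and 0.08 to 0.65 for Acaa1a, do not meet. The genes lie 183934 bases apart on chromosome 9 (GRCm38, Acaa1b at chr9:119148043-119157093 and Acaa1a at chr9:119341028-119350296), and 35.5% of the 50-base windows of Acaa1b transcripts also occur in Acaa1a transcripts. How the counting treated reads from these windows is not given in the sources used here, so part of the reads of either gene may have been assigned to the other or dropped.

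Shown are the RefSeq windows of 250 bases before a start of each gene, because the transcripts are near copies and only Acaa1b passed the test. They hold no exact match longer than 8 bases, although the transcripts share a run of 327 bases. The Acaa1a window lies inside the gene span given above, whereas the Acaa1b window lies outside its gene. The windows are therefore not at like positions relative to the gene spans. Both are written 5′ to 3′ on the strand of the gene (GRCm38.p6, Acaa1b at chr9:119157094-119157343 on the minus strand and Acaa1a at chr9:119341044-119341293 on the plus strand), with the GC box GGGCGG, searched on both strands, in capitals.
Acaa1b: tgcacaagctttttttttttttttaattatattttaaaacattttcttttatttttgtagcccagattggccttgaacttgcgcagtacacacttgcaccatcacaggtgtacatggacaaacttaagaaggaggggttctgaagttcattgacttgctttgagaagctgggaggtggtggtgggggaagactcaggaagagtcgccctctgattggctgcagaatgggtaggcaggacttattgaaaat
Acaa1a: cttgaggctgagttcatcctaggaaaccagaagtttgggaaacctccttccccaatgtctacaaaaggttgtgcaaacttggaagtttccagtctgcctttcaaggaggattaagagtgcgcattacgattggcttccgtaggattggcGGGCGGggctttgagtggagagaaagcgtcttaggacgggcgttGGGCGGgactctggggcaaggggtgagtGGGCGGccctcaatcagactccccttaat
The box occurs 0 times in the window of Acaa1b and 3 times in that of Acaa1a. It was present in this window in 17 of the 29 members with an entry in the promoter table and in 35.4% of all 27025 genes there. Decr1, Acaa2, Acat1, Hsd17b4, Cyp4a10, Cyp4a12a, Cyp4a14 and Vnn1 have no entry. A direct repeat of AGGNCA with 1 base between the copies, the form PPARα is known to bind with its partner RXR, was searched on both strands of the 300 bases around the start and was found in 0 of the 29 members and in 0.451% of all genes in the table. This says only that these letters are not in those windows.

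The bifunctional enzymes that carry the middle steps of the peroxisomal cycle rose as well. Hsd17b4, the D-bifunctional protein, had 422, 401 and 433 TPM in rMSA livers, against 208, 222 and 203 TPM in saline livers (log2 fold change 0.98 ± 0.09 SE, adjusted p = 1.46e-04, limma). Ehhadh, the L-bifunctional enzyme, had 256, 221 and 267 TPM in rMSA livers, against 157, 146 and 142 TPM in saline livers (log2 fold change 0.73 ± 0.10 SE, adjusted p = 0.00141, limma). For both genes every rMSA liver was above every saline liver. Acox2, the oxidase that opens the cycle for branched-chain acids and bile acid intermediates, did not follow: it averaged 176 ± 11.6 TPM with rMSA and 202 ± 17.1 TPM with saline (SD, n = 3 mice each; log2 fold change -0.19, adjusted p = 0.199, limma).

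Genes for the handling of peroxisomal products and for the organelle itself rose too. Acot3, an acyl-CoA thioesterase that frees fatty acids from coenzyme A, had 54.5, 33.0 and 37.5 TPM in rMSA livers, against 3.24, 7.50 and 8.57 TPM in saline livers (log2 fold change 2.57 ± 0.31 SE, adjusted p = 6.30e-04, limma). Acot4, the thioesterase of succinyl-CoA and other dicarboxylic acyl-CoAs, had 40.9, 34.9 and 47.2 TPM in rMSA livers, against 12.1, 18.2 and 17.8 TPM in saline livers (log2 fold change 1.31 ± 0.18 SE, adjusted p = 0.00109, limma). Both were low in saline livers and clear of them in every rMSA liver. Crot, the carnitine octanoyltransferase that prepares shortened chains for export to mitochondria, had 173, 122 and 198 TPM in rMSA livers, against 75.3, 96.3 and 48.2 TPM in saline livers (log2 fold change 1.18 ± 0.26 SE, adjusted p = 0.0102, limma). Its libraries spread widely within each group, and saline liver 3 was the lowest. Decr2, a reductase for unsaturated chains, had 173, 161 and 191 TPM in rMSA livers, against 96.0, 104 and 90.1 TPM in saline livers (log2 fold change 0.85 ± 0.11 SE, adjusted p = 7.29e-04, limma). Pex11a, a membrane protein that promotes division of peroxisomes, had 166, 164 and 234 TPM in rMSA livers, against 72.7, 64.1 and 73.0 TPM in saline livers (log2 fold change 1.39 ± 0.15 SE, adjusted p = 3.36e-04, limma). The groups did not overlap for Decr2 and Pex11a, and rMSA liver 3 was the highest for both.

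Among mitochondrial members, the largest increases were found for a thioesterase and a ketone body enzyme. Acot2, the mitochondrial acyl-CoA thioesterase, had 24.3, 30.4 and 36.2 TPM in rMSA livers, against 5.32, 5.92 and 5.77 TPM in saline livers (log2 fold change 2.21 ± 0.16 SE, adjusted p = 4.84e-05, limma). Bdh1, the dehydrogenase that interconverts acetoacetate and 3-hydroxybutyrate, had 153, 185 and 198 TPM in rMSA livers, against 37.6, 49.5 and 49.2 TPM in saline livers (log2 fold change 1.96 ± 0.14 SE, adjusted p = 5.79e-05, limma). In both cases the lowest rMSA liver was far above the highest saline liver. Acat1, the acetoacetyl-CoA thiolase, rose with a log2 fold change of 0.84 ± 0.18 (SE, adjusted p = 0.00926, limma), with 308 ± 51.4 TPM in rMSA livers and 172 ± 37.7 TPM in saline livers (SD, n = 3 mice each).

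The auxiliary enzymes that feed unsaturated chains into the spiral came next. Decr1, the mitochondrial 2,4-dienoyl-CoA reductase, had 142, 146 and 158 TPM in rMSA livers, against 62.9, 72.0 and 63.3 TPM in saline livers (log2 fold change 1.16 ± 0.10 SE, adjusted p = 1.11e-04, limma). Eci1, an enoyl-CoA isomerase, had 286, 274 and 256 TPM in rMSA livers, against 137, 148 and 168 TPM in saline livers (log2 fold change 0.85 ± 0.11 SE, adjusted p = 7.57e-04, limma). Neither gene had an overlap between the groups. Hadh, the 3-hydroxyacyl-CoA dehydrogenase for shorter chains, had 567, 609 and 633 TPM in rMSA livers, against 343, 391 and 366 TPM in saline livers (log2 fold change 0.72 ± 0.10 SE, adjusted p = 0.00113, limma). Its rMSA livers again all lay above the saline livers.

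Hadha and Hadhb encode the α and β subunits of the trifunctional protein, which carries the last steps for long chains on the inner membrane. Hadha had 248, 267 and 271 TPM in rMSA livers, against 176, 187 and 183 TPM in saline livers, a log2 fold change of 0.52 ± 0.09 (SE, adjusted p = 0.00321, limma). Hadhb rose alongside it, with 232 ± 17.5 TPM in rMSA livers and 147 ± 18.7 TPM in saline livers (SD, n = 3 mice each; log2 fold change 0.66, adjusted p = 0.00436, limma). The genes stand head to head on chromosome 5 of GRCm38, with 272 bases between Hadha (chr5:30119423-30154980, minus strand) and Hadhb (chr5:30155253-30184593, plus strand). The 250 bases before the start of Hadhb (chr5:30155003-30155252, plus strand, 5′ to 3′, GC boxes in capitals) are shown because 228 of them also belong to the promoter window of Hadha.
Hadhb: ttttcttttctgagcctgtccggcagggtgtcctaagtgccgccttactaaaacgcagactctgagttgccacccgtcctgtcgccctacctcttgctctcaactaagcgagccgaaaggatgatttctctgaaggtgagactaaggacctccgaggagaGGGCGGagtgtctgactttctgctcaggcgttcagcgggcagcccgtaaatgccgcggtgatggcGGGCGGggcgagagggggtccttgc
It holds 2 GC boxes in the direction printed.

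Of the genes for entry and for the first dehydrogenation, a carrier and a dehydrogenase passed the test. Slc25a20, the carnitine-acylcarnitine translocase, rose by 0.52 on the log2 scale (adjusted p = 0.00433, limma) and Acads, the short-chain acyl-CoA dehydrogenase, by 0.41 (adjusted p = 0.0399, limma). The call of Acads was lost in 10 of 16 alternatives, among them leaving out any library but saline liver 3, and that of Slc25a20 with median centring alone. Cpt1a, the rate-controlling carnitine palmitoyltransferase of the outer membrane, had 219.9, 251 and 365 TPM in rMSA livers and 164, 246 and 193 TPM in saline livers. Its groups overlapped and its log2 fold change of 0.46 (SE 0.21) did not pass (adjusted p = 0.139, limma). Its partner of the inner membrane, Cpt2, had a log2 fold change of -0.04. The dehydrogenases for medium, long and very long chains, Acadm, Acadl and Acadvl, had log2 fold changes of 0.25, 0.37 and 0.25, and none passed. Echs1, the short-chain hydratase, and Acaa2, the mitochondrial thiolase, had values of -0.04 and 0.21 and did not pass. Of the electron carriers that take up what the dehydrogenases release, Etfb fell, with 438 ± 10.8 TPM in rMSA livers and 549 ± 52.6 TPM in saline livers (SD, n = 3 mice each; log2 fold change -0.32, adjusted p = 0.0444, limma). This call was lost in 8 of 16 alternatives, among them leaving out any library but saline liver 1. Its partner subunit Etfa (0.07) and the oxidoreductase Etfdh (0.23) did not pass.

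The 2 enzymes found in both organelles gave no call. Acad11, an acyl-CoA dehydrogenase for long and hydroxylated chains, had 199, 165 and 203 TPM in rMSA livers, against 151, 162 and 123 TPM in saline livers, and all rMSA livers were above the saline livers, but the log2 fold change was 0.38 ± 0.13 (SE, adjusted p = 0.0620, limma). Eci2, an enoyl-CoA isomerase, had 200.0, 208 and 233 TPM in rMSA livers, against 291, 244 and 223 TPM in saline livers, with overlapping groups and a log2 fold change of -0.24 ± 0.12 (SE, adjusted p = 0.187, limma).

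The microsomal Cyp4a genes did not move in 1 direction. Cyp4a10, a fatty acid ω-hydroxylase, fell, with 272, 295 and 303 TPM in rMSA livers, against 649, 605 and 654 TPM in saline livers (log2 fold change -1.13 ± 0.09 SE, adjusted p = 9.13e-05, limma). Every rMSA liver was below every saline liver. Cyp4a14, its neighbour 22128 bases away on chromosome 4, had 586, 522 and 739 TPM in rMSA livers, against 453, 301 and 441 TPM in saline livers (log2 fold change 0.64 ± 0.19 SE, adjusted p = 0.0342, limma), and every rMSA liver was above every saline liver. This call was lost in 6 of 16 alternatives, among them leaving out rMSA liver 1 or 3 or saline liver 2 and median centring. Cyp4a12a, an ω-hydroxylase that is higher in male mice, had 81.9, 26.4 and 14.8 TPM in rMSA livers, against 23.9, 21.0 and 46.2 TPM in saline livers, with overlapping groups. Its log2 fold change was 0.16 ± 0.55 (SE, adjusted p = 0.861, limma), and it was -0.51 without rMSA liver 1, the highest of all. Cyp4a12a shares 48.9% of its 50-base transcript windows with its copy Cyp4a12b, which fell with a log2 fold change of -3.14 (SE 0.21, adjusted p = 3.55e-05, limma), so reads of the pair could have been split between them. Cyp4a10 shares 29.8% of its windows with other Cyp4a genes and Cyp4a14 shares 0%.

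Vnn1, a pantetheinase anchored at the cell surface that breaks down a product of coenzyme A, had the largest change of all members. It had 92.4, 96.5 and 97.8 TPM in rMSA livers, against 2.53, 4.26 and 8.13 TPM in saline livers (log2 fold change 4.12 ± 0.29 SE, adjusted p = 4.84e-05, limma). The rMSA livers lay close together and far above the saline livers. Acot1, the cytosolic acyl-CoA thioesterase, had 33.2, 23.3 and 28.9 TPM in rMSA livers, against 23.7, 16.3 and 33.7 TPM in saline livers, with overlapping groups and a log2 fold change of 0.25 ± 0.25 (SE, adjusted p = 0.494, limma). Its log2 fold change was -0.0057 without saline liver 2. Acot1, Acot2, Acot3 and Acot4 lie in 1 cluster on chromosome 12 (GRCm38, chr12:83987861-84060400), in the order Acot2, Acot1, Acot4 and Acot3. Acot1 and Acot2 share 31.8% and 27.6% of their windows with the rest of the family, and Acot3 and Acot4 share 7.57% and 4.36%. The 3 genes for the mitochondrial and peroxisomal enzymes of the cluster rose, while the gene for the cytosolic enzyme among them did not pass.

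Added up per library, the members took 1.08% to 1.15% of all TPM in rMSA livers and 0.705% to 0.735% in saline livers. The peroxisomal members summed to 3935 ± 250.3 TPM with rMSA and 1207 ± 38.6 TPM with saline (SD, n = 3 mice each), and without Acaa1b to 1601 ± 139 TPM with rMSA and 939 ± 47.0 TPM with saline. The mitochondrial members summed to 5782 ± 260.2 TPM with rMSA and 4531 ± 251 TPM with saline. Both sums were higher in each rMSA liver than in any saline liver. The microsomal sum was 947 ± 107 TPM with rMSA and 1065 ± 119.7 TPM with saline, and the groups overlapped, with Cyp4a10 lower and Cyp4a14 higher in rMSA livers.

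**Figure D3:**
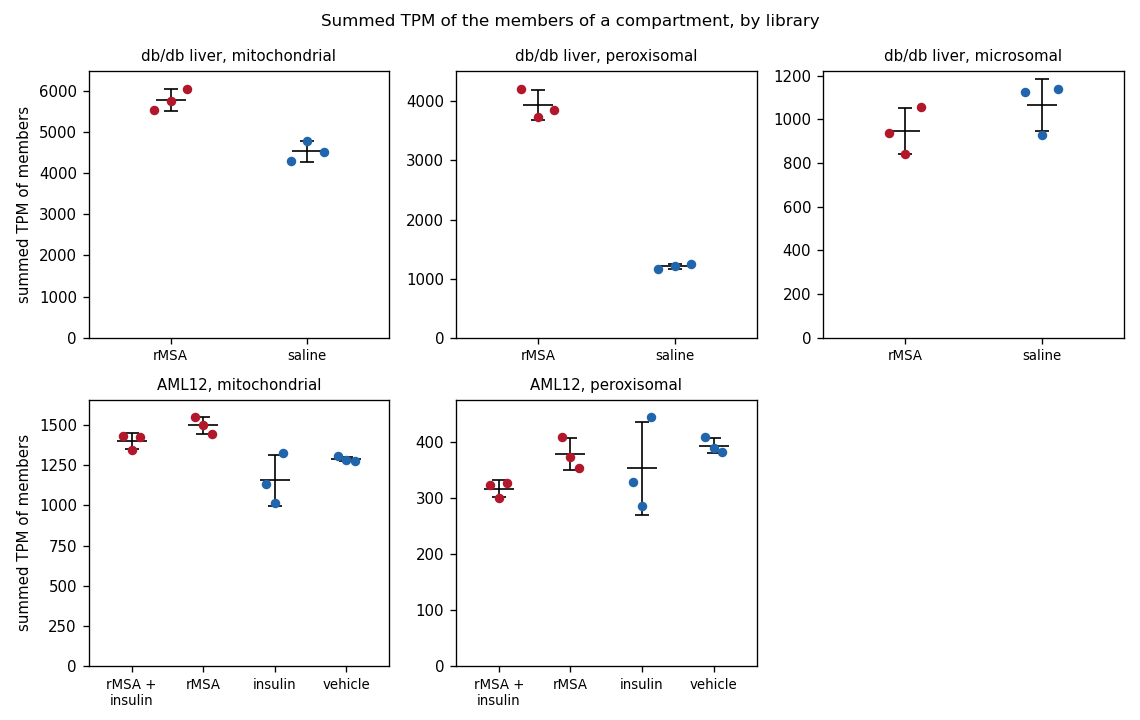
Summed TPM of the mitochondrial, peroxisomal and microsomal members in each library of db/db liver (top) and of the mitochondrial and peroxisomal members in AML12 cells (bottom), with the mean and SD of 3 libraries per group. The peroxisomal sum in liver lies between 3734 and 4215 TPM with rMSA and between 1167 and 1244 TPM with saline, while the 4 AML12 groups lie between 286 and 445 TPM.

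Other genes of these routes, taken from a list of 123 symbols, gave 52 that rose and 21 that fell of 117 tested in liver. Among all tested genes 21.8% rose and 8.38% fell, and these shares also stand against the counts by group that follow. Of 7 genes of ketone body metabolism 5 rose and 1 fell. Aacs, the acetoacetyl-CoA synthetase that turns acetoacetate back into an activated form, had a log2 fold change of 2.56 (adjusted p = 7.08e-05, limma). Of 17 genes of activation and entry 8 rose and 3 fell. They include both acetyl-CoA carboxylases, Acaca (3.06) and Acacb (2.84), whose product malonyl-CoA inhibits Cpt1a and feeds fatty acid synthesis, and the carnitine acetyltransferase Crat (2.09). The list thus holds genes that act against oxidation as well as genes of oxidation.

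Of 39 further genes listed as peroxisomal 20 rose and 4 fell. Ech1, a dienoyl-CoA isomerase, had a log2 fold change of 0.99 and Lonp2, the peroxisomal protease, of 0.83, and Mpv17l fell by 1.11 (limma adjusted p of 2.85e-04, 0.00151 and 0.00150). Of 21 further genes listed as mitochondrial 7 rose and 4 fell. Ivd, which breaks down leucine, fell by 1.49, and Nudt7, a hydrolase of coenzyme A that resides in peroxisomes although the list put it here, and Acsf2 rose by 1.53 and 0.74 (limma adjusted p of 7.19e-05, 5.19e-04 and 8.48e-04). Of 14 further genes listed as microsomal 5 rose and 6 fell. Por, the reductase that supplies electrons to microsomal cytochromes P450, fell by 1.79 on the log2 scale (adjusted p = 2.76e-05, limma), and Aldh3a2, the fatty aldehyde dehydrogenase that completes ω-oxidation, rose by 1.86 (adjusted p = 8.58e-05, limma). Of 19 regulators and classical targets 7 rose and 3 fell, led by Cidea (7.24), Fabp1 (4.99) and Plin2 (2.82). Ppara itself, named after its values were seen, averaged 72.3 TPM with rMSA and 48.8 TPM with saline, and its log2 fold change of 0.55 did not pass (adjusted p = 0.0543, limma).

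Markers of other cells moved in the same livers. Of 8 markers of stellate cells and fibroblasts 6 rose and 0 fell, with a summed TPM of 264 to 347 in rMSA livers and 114 to 236 in saline livers. Most of these sums was Dcn, at 176 to 253 TPM with rMSA and 87.3 to 203 TPM with saline. Dcn itself did not pass (adjusted p = 0.160, limma), and its groups overlapped. Of 5 markers of bile duct cells 3 rose, with sums of 77.0 to 167 TPM with rMSA and 22.5 to 38.3 TPM with saline. Most of these sums was Spp1, at 68.13 to 152.59 TPM with rMSA and 16.42 to 31.15 TPM with saline. The highest value of any other bile duct marker was 4.68 TPM (Krt19). Of 6 endothelial markers 1 rose, with sums of 149 to 150.4 TPM with rMSA and 108 to 154 TPM with saline. Of 7 macrophage markers 1 rose (Cd68, log2 fold change 0.69, adjusted p = 0.0110, limma) and 1 fell (Marco, -3.04, adjusted p = 0.00154, limma), with sums of 278 to 418 TPM with rMSA and 278 to 468 TPM with saline. Of 12 hepatocyte markers 2 rose and 6 fell. The muscle markers summed to 0.12 TPM or less in every rMSA liver and to 0.25 TPM or less in every saline liver. The part of these shifts in the members' changes was not tested.

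In AML12 cells 1 of the 3 microsomal members, Cyp4a12a, had values, all close to 0. Acot3, Cyp4a10 and Cyp4a14 are not among the symbols of the AML12 table, and Bdh1, Acot4 and Cyp4a12a averaged under 1 TPM and were not tested, which left 31 members. Cyp4a12a reached 0.26 TPM at most and Bdh1 0.76 TPM. The highest member with vehicle was Acot1 at 239.7 ± 1.91 TPM (SD, n = 3 libraries).

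With rMSA alone, 4 of the 31 tested members rose and 1 fell against vehicle, while 5.90% of all tested genes rose and 1.89% fell. The median log2 fold change was 0.08 over the members and 0.06 over all genes. All libraries with rMSA lay above all with vehicle for 14 members and below them for 1, against 2758 and 1534 of 10826 tested genes. Cpt1a was 1 of the 14 but did not pass. It had 244, 228 and 205 TPM with rMSA, against 154, 142 and 133 TPM with vehicle. Vnn1 had 98.4, 96.6 and 76.0 TPM with rMSA, against 39.5, 40.5 and 37.6 TPM with vehicle, a log2 fold change of 1.18 ± 0.21 (SE, adjusted p = 0.00598, limma). Acot1 had 421, 412 and 418 TPM with rMSA, against 241, 238 and 241 TPM with vehicle, with a log2 fold change of 0.79 ± 0.09 (SE, adjusted p = 3.58e-04, limma). Acaa2 had 113, 110.3 and 124 TPM with rMSA, against 75.1, 72.7 and 78.1 TPM with vehicle, and its log2 fold change was 0.61 ± 0.09 (SE, adjusted p = 0.00165, limma). For each of these genes the libraries with rMSA were all above those with vehicle. Acot2 had 33.6, 37.7 and 30.4 TPM with rMSA, against 21.4, 24.2 and 20.8 TPM with vehicle, a log2 fold change of 0.59 ± 0.11 (SE, adjusted p = 0.00869, limma), again without overlap. Acox2 fell, with 16.9, 15.1 and 14.1 TPM with rMSA, against 33.5, 36.6 and 27.9 TPM with vehicle, and its log2 fold change was -1.04 ± 0.24 (SE, adjusted p = 0.0217, limma). Its groups did not overlap, but the call was lost when any 1 of 5 of the 6 libraries was left out. None of the 8 tested peroxisomal members rose, which for so few genes is near the 5.90% of all tested genes that did. Among the cell type markers of the same comparison, Apob (log2 fold change 1.18) and the bile duct marker Spp1 (1.78) rose, and the hepatocyte marker Ttr (-1.73) and the macrophage marker Csf1r (-1.47, under 3 TPM on average in either group) fell, of 11 tested. Their part in the members' changes was not tested. After median centring 5 members were higher and 1 lower, with 64.6% of all calls upward in place of 75.7%, and Acaa2 and Acot2 did not pass (limma adjusted p of 0.0635 and 0.163).

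In the presence of insulin, 7 members rose and 1 fell with rMSA + insulin against insulin, while 14.5% of all tested genes rose and 2.73% fell. The medians were 0.24 over the members and 0.21 over all genes. Vnn1 had 96.2, 82.8 and 109.6 TPM with rMSA + insulin, against 29.4, 29.5 and 54.2 TPM with insulin, a log2 fold change of 1.38 ± 0.21 (SE, adjusted p = 0.00148, limma). Acot2 had 64.7, 71.6 and 63.4 TPM with rMSA + insulin, against 30.6, 38.0 and 35.3 TPM with insulin, a log2 fold change of 0.93 ± 0.11 (SE, adjusted p = 3.70e-04, limma). Acot1 had 373, 336 and 344 TPM with rMSA + insulin, against 243, 188 and 194 TPM with insulin, a log2 fold change of 0.76 ± 0.09 (SE, adjusted p = 3.33e-04, limma). All 3 genes were higher in every library with rMSA + insulin than in any with insulin. Acaa2 had 97.6, 93.5 and 89.5 TPM with rMSA + insulin, against 72.4, 58.9 and 69.8 TPM with insulin (log2 fold change 0.48, adjusted p = 0.00439, limma), and Etfb had 205, 229.8 and 199 TPM with rMSA + insulin, against 134, 194 and 123 TPM with insulin (log2 fold change 0.51, adjusted p = 0.0306, limma). Slc25a20 also rose, by 0.71 (adjusted p = 0.0203, limma). Acad11 had 21.1, 17.4 and 22.7 TPM with rMSA + insulin, against 12.2, 8.44 and 17.5 TPM with insulin, with overlapping groups and a log2 fold change of 0.69 ± 0.21 (SE, adjusted p = 0.0420, limma). Acox2 fell again, with 21.5, 21.6 and 22.2 TPM with rMSA + insulin, against 33.0, 31.6 and 67.0 TPM with insulin, and its log2 fold change was -0.89 ± 0.24 (SE, adjusted p = 0.0262, limma). For this gene insulin library 3 stood far above the other insulin libraries. Over 18 alternatives, Acad11 and Etfb each lost the call in 8, Slc25a20 in 5, Acox2 in 4 and Acaa2 in 3. Leaving out any rMSA + insulin library took the calls of Acad11, Etfb and Acox2, and leaving out insulin library 1 those of Acad11, Etfb and Slc25a20. Acot1 and Acot2 lost it with median centring alone, and Vnn1 in none.

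**Figure D4:**
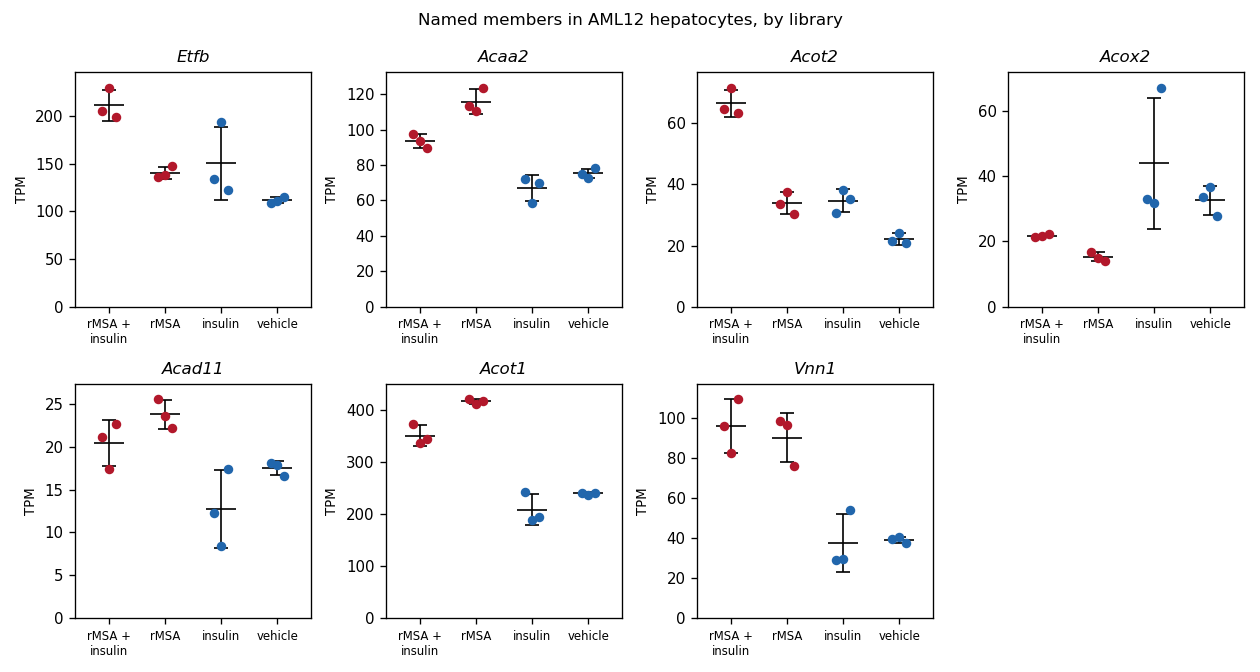
TPM of Etfb, Acaa2, Acot2, Acox2, Acad11, Acot1 and Vnn1 in the 12 AML12 libraries, with the mean and SD of 3 libraries per group (red with rMSA, blue without). Vnn1 lies between 76.0 and 109.6 TPM in the 6 libraries with rMSA and between 29.4 and 54.2 TPM in the 6 without, and the insulin group spreads most for Acox2.

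These counts depended on the insulin libraries. Insulin libraries 1 and 2 had less of many members than insulin library 3: Etfa stood at 45.5, 16.4 and 70.8 TPM, Etfdh at 19.5, 7.16 and 28.6 TPM and Crot at 80.3, 29.0 and 130.1 TPM in insulin libraries 1, 2 and 3. Vehicle held 68.5 to 80.4 TPM of Etfa, 25.4 to 28.8 TPM of Etfdh and 119 to 143 TPM of Crot, so for these genes library 3 lay within the vehicle range and libraries 1 and 2 below it. Over 10480 genes the Spearman correlation of transcript length with the difference from the vehicle mean was described with no test. It was -0.50, -0.37 and -0.016 in insulin libraries 1, 2 and 3. In rMSA + insulin libraries 1, 2 and 3 it was -0.26, -0.32 and -0.20, and in those with rMSA alone 0.18, 0.061 and -0.19. The vehicle libraries, whose own mean is the reference, held -0.30 to 0.34. Over the 31 members alone it was -0.18, -0.23 and 0.21 in insulin libraries 1, 2 and 3. With insulin library 3 alone, 5 members were higher (Etfb, Acaa2, Acot2, Acot1 and Vnn1) and 7 lower (Hadh, Echs1, Acat1, Acox2, Hsd17b4, Crot and Decr2) with rMSA + insulin, against 13.3% and 16.9% of all tested genes. That fit has 1 insulin library, which is assumed to vary like the other groups. Without insulin library 3 the counts were 16 higher and 2 lower of 31, against 49.0% and 4.88% of all tested genes, so the share of members was near that of all genes. After median centring, which moved the median of all genes by -0.26, 4 members were higher and 2 lower and 48.9% of all calls went upward in place of 84.2%.

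**Figure D5:**
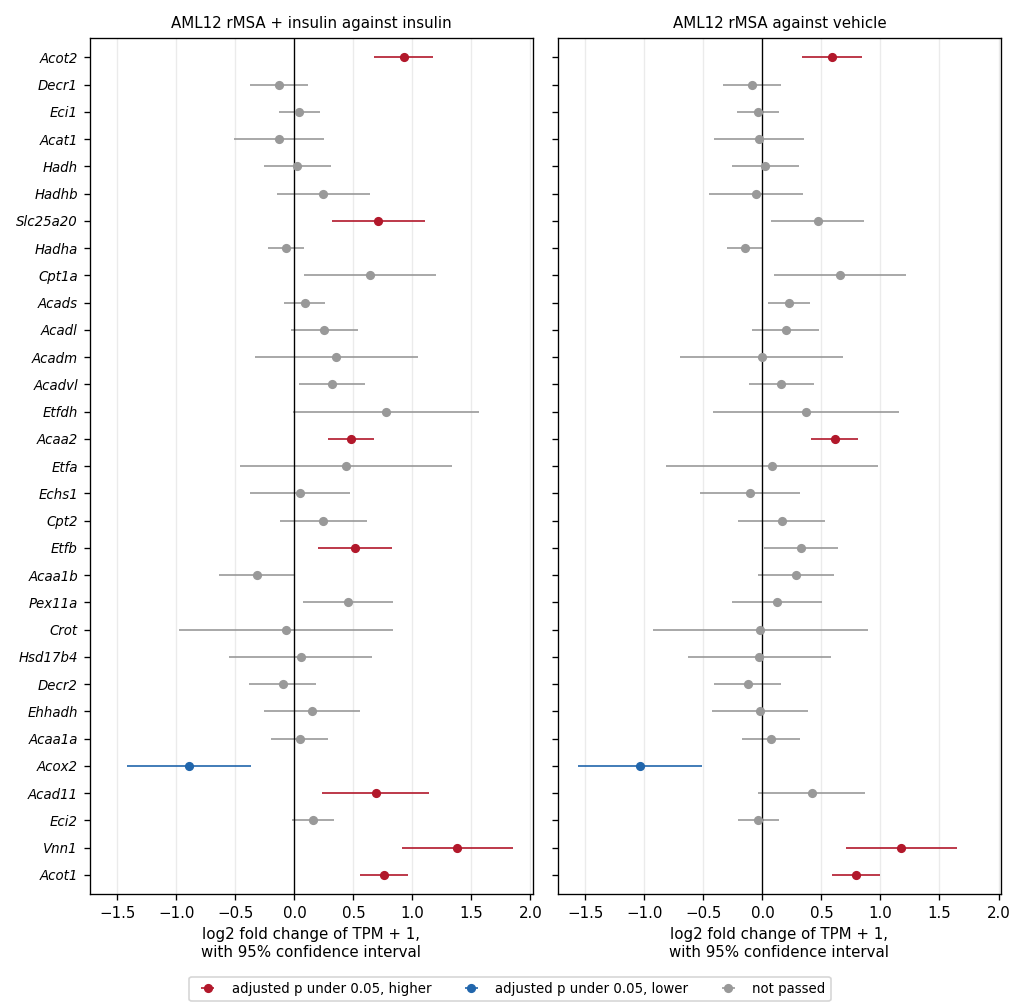
Log2 fold change of TPM + 1 with its 95% confidence interval (limma, 3 libraries per group) for the 31 members tested in AML12 cells, rMSA + insulin against insulin on the left and rMSA against vehicle on the right. Vnn1, Acot1, Acot2 and Acaa2 lie above 0 with a call in both panels and Acox2 below 0, and most intervals of the other members cross 0.

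Insulin alone changed no member past the threshold against vehicle. The limma count was 0 of 31 in either direction, as it was for all tested genes (0% higher and 0% lower). The smallest limma adjusted p of a member was 0.135. At an unadjusted limma p under 0.05, 3 members were higher and 9 lower, while 36.7% of all tested genes passed in either direction. With insulin library 3 alone, Acox2 was higher, with a log2 fold change of 1.02 (adjusted p = 0.0377, limma), against 0.101% of genes higher and 0.0276% lower. Without insulin library 3, 4 members were higher and 19 lower of 31, against 7.11% and 61.3% of all tested genes, and the share that was lower was again near that of all genes. In cells with rMSA, adding insulin raised Acot2 (log2 fold change 0.96, SE 0.11, adjusted p = 0.00182, limma) and Etfb (0.58, SE 0.14, adjusted p = 0.0479, limma), and no member fell, while 2.95% of all tested genes rose and 1.10% fell. Etfb lost this call in 12 of 17 alternatives and Acot2 in none of them. Median centring left 45.0% of all calls upward in place of 72.8%. The interaction of rMSA and insulin gave 0 members by limma in either direction (0.0369% of all tested genes higher and 0% lower). At an unadjusted limma p under 0.05, 0 members were higher and 1 lower, while 6.45% of all tested genes passed in either direction. Acaa1b had the smallest limma adjusted p of a member for the interaction, 0.648.

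Set side by side, Vnn1 and Acot2 rose in liver and in both AML12 comparisons of rMSA. Vnn1 had log2 fold changes of 4.12 in liver, 1.18 in cells against vehicle and 1.38 in cells with insulin, and Acot2 had 2.21, 0.59 and 0.93. Acaa1b, with 3.14 in liver, stood at 2.36 to 3.23 TPM with rMSA and 1.88 to 2.18 TPM with vehicle in AML12 cells (log2 fold change 0.28, adjusted p = 0.360, limma). With insulin its order was the opposite, at 1.37 to 1.57 TPM with rMSA + insulin and 1.53 to 2.66 TPM with insulin. Those groups overlapped, and the change did not pass. Decr1 had 1.16 in liver, and in cells -0.09 against vehicle and -0.13 with insulin. Hsd17b4 had 0.98 in liver, and -0.03 and 0.05 in cells. Acot1 and Acaa2 had 0.25 and 0.21 in liver, neither of which passed, and 0.79 and 0.61 in cells against vehicle. The differences between liver and cells were not tested, since the tables were normalized separately and come from different systems.

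Of the other genes of these routes, 7 rose and 1 fell of 90 tested in AML12 cells with rMSA against vehicle, and 16 rose and 2 fell with rMSA + insulin against insulin. These shares lie near those of all tested genes (5.90% and 1.89% for rMSA alone, 14.5% and 2.73% with insulin). The lipid droplet protein gene Plin2, a classical PPAR target, averaged 882 TPM with rMSA and 312 TPM with vehicle (log2 fold change 1.49, adjusted p = 2.50e-05, limma), and Angptl4, another, had 0.42 (adjusted p = 0.0305, limma). In liver Angptl4 averaged 108.2 TPM with rMSA and 150.3 TPM with saline, the opposite order, whereas Plin2 rose there too. Oxct1, which activates ketone bodies for use outside the liver, had 0.79, the acyl-CoA synthetase gene Acsl5 0.46, the transporter gene Slc27a1 0.70 and the epoxide hydrolase gene Ephx2 0.73 (limma adjusted p of 0.0173, 0.0118, 0.0189 and 0.00222). Pipox, a peroxisomal oxidase, fell by 0.60 (adjusted p = 0.0171, limma).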

How the data were processed

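The TPM values were deposited by the authors, 1 table for liver and 1 for AML12 cells. Per the submitters' processing notes, Trimmomatic 0.33, STAR 2.5.2b, featureCounts of Subread 1.6.0 and GRCm38 were used; for the annotation, the strand setting and the formula behind TPM nothing is stated in those sources, and rRNA depletion and oligo(dT) beads are both described. TPM was analysed as log2(TPM + 1) with limma 3.58.1 in R 4.3.3 (1 mean per group, trended variance, mean of at least 1 TPM), with Benjamini-Hochberg adjustment per comparison over all tested genes. All 12 AML12 libraries shared 1 fit, and the liver had its own. The 4 AML12 comparisons and the interaction share groups with each other. The code was tested on simulated data. Figures and sequences were made in Python 3.11.15 with matplotlib 3.10.9, and the printed promoter sequences come from RefSeq tables of GRCm38.p6. The shared transcript windows and runs and the transcript lengths come from protein-coding transcripts of GENCODE.

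The members and lists were chosen with earlier results of these data known. Values per library are given for the 21 members in liver and 7 in AML12 cells that the naming rule selected, with Acaa1a, Cpt1a and others added for their role. Outside the module, up to 3 genes per pathway group with the smallest p were named in liver and up to 2 in AML12 cells. A few genes that this rule selected are not reported here. Same-numbered rMSA and vehicle libraries deviated together (r = 0.53, 0.14 and 0.58 over genes), so those pairs met the rule for pairing, every r above 0.1. The other comparisons did not meet it. For rMSA + insulin against insulin r was 0.095, 0.79 and 0.80, which missed the rule narrowly and on number 1 alone. The main test left the libraries unpaired in every comparison. Alternatives covered pseudocounts, filters, scaling, weights, a replicate block, fewer groups and leaving out libraries.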

Additional observations from a re-analysis of the deposited data

Results flagged for a closer look

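Etfb, the β subunit of the electron transfer flavoprotein, had values of opposite sign in liver and in cells. Its log2 fold change was -0.32 in db/db liver, rMSA against saline (adjusted p = 0.0444, limma), a call lost in 8 of 16 alternatives. In AML12 cells it was 0.33 with rMSA against vehicle, which did not pass (adjusted p = 0.241, limma), and 0.51 with rMSA + insulin against insulin (adjusted p = 0.0306, limma), a call lost in 8 of 18 alternatives. Hadha, the α subunit of the trifunctional protein, had 0.52 in liver (adjusted p = 0.00321, limma) and -0.071 in AML12 cells with rMSA + insulin against insulin, which did not pass (adjusted p = 0.533, limma). Both are given because the libraries of the groups did not overlap in these comparisons and lay in opposite order. For Hadha in cells the gap was narrow, from 95.58 TPM at most with rMSA + insulin to 95.91 TPM at least with insulin. Its rMSA and vehicle libraries overlapped. Of all tested genes, 32.7% lay higher and 13.0% lower without overlap in liver. With rMSA + insulin against insulin, 2240 of 10826 lay higher and 521 lower, and with rMSA against vehicle 2758 and 1534. The differences between liver and cells were not tested.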

How the results depend on the processing

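The liver count of 20 higher members lay between 18 and 21 when 1 library was left out, and the 2 lower members became 1 to 2. Without a filter, with median centring and with the replicate block 1 liver member was lower. Against vehicle, rMSA gave 4 higher members in every leave-one-out fit and 0 to 1 lower, with array weights 15 and 4, and with only the groups compared 11 higher. For rMSA + insulin against insulin, leaving out a library gave 4 to 16 higher and 0 to 3 lower members, median centring 4 and 2, array weights 18 and 4, only the groups compared 3 and 0, quantile normalization 4 lower, and insulin library 3 alone 7 lower. Insulin against vehicle gave 0 to 4 higher and 0 to 19 lower when a library was left out, both extremes without insulin library 3, with array weights 3 and 16, and 1 higher with quantile normalization and with insulin library 3 alone. For rMSA + insulin against rMSA, the 2 higher members became 1 in every leave-one-out fit (0 lower) and with a pseudocount of 0.1 TPM, no filter, rescaling, the robust fit and the replicate block. That comparison gave 4 higher and 2 lower with quantile normalization, 8 and 21 with array weights, 6 and 12 with only the groups compared, and 1 lower with median centring. The interaction gave 0 higher and 0 to 1 lower in leave-one-out fits, and 9 and 1 with array weights, whose estimation stopped before convergence. The causes were not tested.

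Cyp4a12a in liver turned to -0.054 without saline liver 2 and to -0.51 without rMSA liver 1, and Acot1 to -0.0057 without saline liver 2; leaving out single livers otherwise took Cyp4a12a to 0.69 and Acot1 to 0.50 at most. The replicate block took the call of Etfb for rMSA + insulin against rMSA (limma adjusted p = 0.0611) and those of Acads and Etfb in liver, where 19 members were then higher, and changed no other call of a member. Hadha in liver lost its call with median centring (limma adjusted p = 0.0614). Depth is unknown in TPM, 3 samples per group limit precision, and near copies may share reads.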

Other observations

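Ranked by mean TPM, the highest members in rMSA livers were Acaa1b at 2334, Acaa2 at 973, Cyp4a14 at 616 and Hadh at 603 TPM, and in saline livers Acaa2 at 846, Cyp4a10 at 636 and Etfb at 549 TPM. Most neighbours in these orders could not be told apart by their ranges: 28 of 36 neighbouring pairs overlapped in rMSA livers and 30 of 36 in saline livers. In AML12 cells 20 to 28 of 33 neighbouring pairs overlapped in the 4 groups.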
